A study of Mus musculus with 10 samples.

Results

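The Runx transcription factors Runx1, Runx2 and Runx3, their shared partner Cbfb and the corepressor Runx1t1 were followed through all of their annotated transcripts in mouse hematopoietic stem cells (HSCs). The members were the 5 genes with these symbols among 33393 genes, and they held 35 of the 95912 transcripts in the files. RNA-seq was done on CD34- HSCs, sorted as Lin- Sca-1+ cKit+ CD34- Flt3- bone marrow cells from 8-week-old C57BL/6 mice. Control mice carried Reg1flox/flox, floxed alleles of Zc3h12a, which encodes the ribonuclease Regnase-1. Reg1Δ/Δ mice carried the same floxed alleles with Vav1-iCre, a Cre recombinase driven by the Vav1 promoter in blood cells. The 10 libraries formed 2 sets by their sample names, with 3 control and 3 Reg1Δ/Δ libraries in set 1 and 2 of each in set 2. The study describes independent experiments with these group sizes. Whether they differed by day, sort or kit is not given in the sources used here.

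Runx factors bind DNA through the Runt domain and act as heterodimers with Cbfb, which does not bind DNA itself but strengthens the binding and protects Runx proteins from degradation. Runx1 is needed for HSCs to form in the embryo and later restrains stem and progenitor cells, Runx2 is best known for bone formation, and Runx3 for T cell and neural development. Each Runx gene is transcribed from a distal start (P1) and a proximal start (P2), which give proteins with different amino termini. Runx1t1, also called ETO, is a corepressor of the MTG family and is the fusion partner of RUNX1 in a form of acute myeloid leukemia.

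The first sequences show where the distal and proximal isoforms part, because the Runx1 result turns on this point. Each run is read 5′ to 3′ from GENCODE M21 transcripts on GRCm38. Capitals mark the last 15 bases that are particular to the isoform, and the lower case marks the first 15 bases of the shared coding part. The shared part begins at position 92695737 of chromosome 16 on the minus strand for Runx1, at position 44735618 of chromosome 17 on the minus strand for Runx2 and at position 135152788 of chromosome 4 on the plus strand for Runx3.
Runx1 distal, Runx1-201: AGTGCTTCATGAGAGatgccagcacgagcc
Runx1 proximal, Runx1-202: TGCGTATCCCCGTAGatgccagcacgagcc
Runx2 distal, Runx2-204: AAAGCTTCTTTTGGGatccgagcaccagcc
Runx2 proximal, Runx2-203: TGCGTATTCCTGTAGatccgagcaccagcc
Runx3 distal, Runx3-201: CAACCTTCATACGAGacccgagcaccagcc
Runx3 proximal, Runx3-202: TGCGTATTCCCGTAGacccgagcaccagcc
In all 3 genes the distal coding exon added 58 coding bases before this point and the proximal isoform added 16.

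The distal starts of the 3 Runx genes also shared the longest common run among their RefSeq start windows, 300 bases each from 250 before to 50 after the start on GRCm38.p6. It is shown, in capitals within 30 bases, because it contains 2 copies of ACCACA, the motif that Runx proteins bind.
Runx1, chr16:92826025-92826054, minus strand: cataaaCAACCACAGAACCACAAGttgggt
Runx2, chr17:44814583-44814612, minus strand: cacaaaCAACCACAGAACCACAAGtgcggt
Runx3, chr4:135120503-135120532, plus strand: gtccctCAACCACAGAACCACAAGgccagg
The common run of 18 bases lay at bases 27 to 44 of the RefSeq transcript for Runx1, at bases 22 to 39 for Runx2 and at positions -136 to -119 from the start for Runx3. It was found on either strand in 4 of 32851 windows (0.0122%), those of the 3 Runx genes and of Gm16225. ACCACA or its complement TGTGGT, searched alone on both strands, was found in 16.8% of all windows. It occurred 2 times in the Runx1 distal window, 3 times in the Runx2 distal window and 2 times in the Runx3 distal window. The proximal windows of Runx1 and Runx3 and the window of Cbfb held none. A match is a description of letters, and no binding was measured here. The RefSeq table held windows for 4 of the 5 genes.

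The label check went against the genotype. Zc3h12a was at 1.83, 1.28 and 1.6 TPM in the control libraries of set 1 and at 3.54, 2.08 and 2.51 TPM in those labelled Reg1Δ/Δ. In set 2 the values were 1.48 and 6.07 TPM in the controls and 10.3 and 8.52 TPM in the libraries labelled Reg1Δ/Δ. The log2 difference over both sets was 0.83 (SE 0.28, adjusted p = 0.0314, limma), and it was 1.73 (adjusted p = 0.000174) under quantile normalization and 1.13 (adjusted p = 0.00455) under median-of-ratios scaling. It did not pass in set 1 alone (0.52, adjusted p = 0.0527) or in set 2 alone (1.30, adjusted p = 0.265). Which exons the transcripts retain cannot be read from these values, so directions are given below by label. All values are TPM, transcript abundances scaled to transcript length and to the total of the library, and the read depth is unknown.

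The 2 sets also differed in composition. Protein-coding transcripts took 46.2% to 49.1% of the TPM in set 1 and 73.5% to 81.1% in set 2, while transcripts under 500 bases took 52.3% to 54.5% and 20.0% to 27.3%. Markers of mature lineages moved with the genotype label. The summed TPM of 7 B lineage markers ranged from 130.6 to 996 in the controls and from 2.34 to 18.1 in the libraries labelled Reg1Δ/Δ, where Pax5 was at or near 0. The 8 granulocyte markers summed to between 2842 and 7408 TPM against 298.6 to 968 TPM, the 4 monocyte markers to 29.3 to 75.8 against 3.66 to 7.2 TPM, and the 5 T and NK markers to 29.3 to 52.5 against 2.23 to 4.11 TPM. The 4 megakaryocyte markers and the 5 erythroid markers summed to 93.6 to 454 and 1004 to 3500 TPM in the controls, against 19.1 to 98.8 and 554 to 834 TPM. Of all 12874 genes tested, 37.9% were lower and 15% were higher in the libraries labelled Reg1Δ/Δ. Of the markers tested, 6 of 6 of the B lineage, 6 of 8 granulocyte, 4 of 4 monocyte, 1 of 1 T and NK and 4 of 4 megakaryocyte genes were lower. Of the 5 erythroid genes, 2 were lower and 2, Klf1 and Epor, were higher. Of the stem cell markers, 7 of 8 tested were lower in the libraries labelled Reg1Δ/Δ, Hlf and Procr among them. The other, Ly6a, which encodes the sort marker Sca-1, differed by 0.92 (adjusted p = 0.155), and by 1.34 (adjusted p = 0.0482) under median-of-ratios scaling. Kit, which encodes the sort marker cKit, was among the 7 lower ones, at -1.39 (adjusted p = 0.000108). It was at -1.48 under quantile normalization and at -0.97 under median-of-ratios scaling. Cd34 and Flt3, whose products the sort excludes, were lower. Cd48, which the sort did not use, differed by 0.33 (adjusted p = 0.119), and by 0.74 (adjusted p = 0.00431) under median-of-ratios scaling. The 3 stroma markers were below the filter. The part of these cell markers in the results that follow was not tested. In bulk libraries, fewer cells of a type and less RNA per cell cannot be told apart.

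Runx1, the gene for the alpha subunit of core-binding factor in HSCs, was lower in the libraries labelled Reg1Δ/Δ. Its transcripts come from chr16:92601466-92826149 on the minus strand of GRCm38. In set 1 its summed level was 27.1, 42.4 and 24.5 TPM in the controls and 9.59, 6.67 and 11.1 TPM in the libraries labelled Reg1Δ/Δ. Set 2 gave 28.1 and 27.6 TPM against 13.3 and 9.99 TPM. The groups did not overlap within either set. The ratio of the control mean to the Reg1Δ/Δ mean was 3.44 in set 1 and 2.39 in set 2. Over both sets, the log2 difference was -1.48 (SE 0.19, n = 5 and 5, adjusted p = 0.000177). It was -1.66 (adjusted p = 0.00271) in set 1 alone and -1.20 (adjusted p = 0.0463) in set 2 alone, and the difference between the sets did not pass the test (adjusted p = 0.677).

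Cbfb, the beta subunit, was lower by a similar amount. It lies at chr8:105170674-105217989 on the plus strand. Its level was 70.2, 79.0 and 54.2 TPM in the set 1 controls and 23.1, 26.8 and 17 TPM in the set 1 libraries labelled Reg1Δ/Δ. Set 2 gave 50.3 and 70.3 TPM against 23.7 and 17.1 TPM, and again no library of one group reached the other. The ratio of the group means was 3.04 in set 1 and 2.95 in set 2. The log2 difference was -1.55 (SE 0.17, adjusted p = 6.2e-05). In set 2 alone it was -1.51, with an adjusted p of 0.0665.

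Runx2 was the member with the largest log2 difference of the 4 tested. The gene lies at chr17:44495987-44814797 on the minus strand. It was at 8.93, 9.64 and 10 TPM in the set 1 controls and at 1.49, 0.764 and 0.426 TPM in the set 1 libraries labelled Reg1Δ/Δ. In set 2 the values were 10.7 and 7.14 TPM against 1.77 and 0.732 TPM. The control libraries were thus well above the others in both sets, with ratios of the means of 10.7 and 7.14. The libraries at 0.764, 0.426 and 0.732 TPM were under 1 TPM, the level the filter asked for in at least 5 of 10 libraries. Runx2 was therefore tested through its control libraries, and a filter of 1 TPM in every library would leave it out. Over both sets, the log2 difference was -2.37 (SE 0.20, adjusted p = 9.3e-06), and in set 2 alone it was -2.16 with an adjusted p of 0.0579. With 0.1 TPM added before the logarithm in place of 1 TPM, the log2 difference over both sets was -3.18, so its size depends on this choice.

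Runx3, at chr4:135120652-135177990 on the plus strand, did not pass the test. Its level was 15.3, 7.32 and 7.33 TPM in the set 1 controls against 12, 5.30 and 5.24 TPM, and 23.3 and 31.4 TPM in the set 2 controls against 19.6 and 21.7 TPM. The groups overlapped in set 1 and did not in set 2, and all 4 libraries of set 2 lay above the 6 of set 1. The log2 difference was -0.38 (SE 0.26, adjusted p = 0.244). With protein-coding transcripts alone it was -0.44 with an adjusted p of 0.0119, and after quantile normalization it was 0.13 with an adjusted p of 0.72, so neither the call nor the sign held over these settings.

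Runx1t1, at chr4:13743436-13893649 on the plus strand, was below the filter of 1 TPM in every library and was not tested. Its level was 0.394, 0.0604 and 0.164 TPM in the set 1 controls and 0.555 and 0.472 TPM in the set 2 controls. The libraries labelled Reg1Δ/Δ held at most 0.0187 TPM, and 2 of the 5 listed it at 0. Of its 4 transcripts, Runx1t1-201 reached 0.472 TPM, Runx1t1-203 reached 0.396 TPM, Runx1t1-202 reached 0.318 TPM and Runx1t1-204 reached 0.158 TPM, each in a control library. No fold was computed against values this close to 0.

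**Figure D1:**
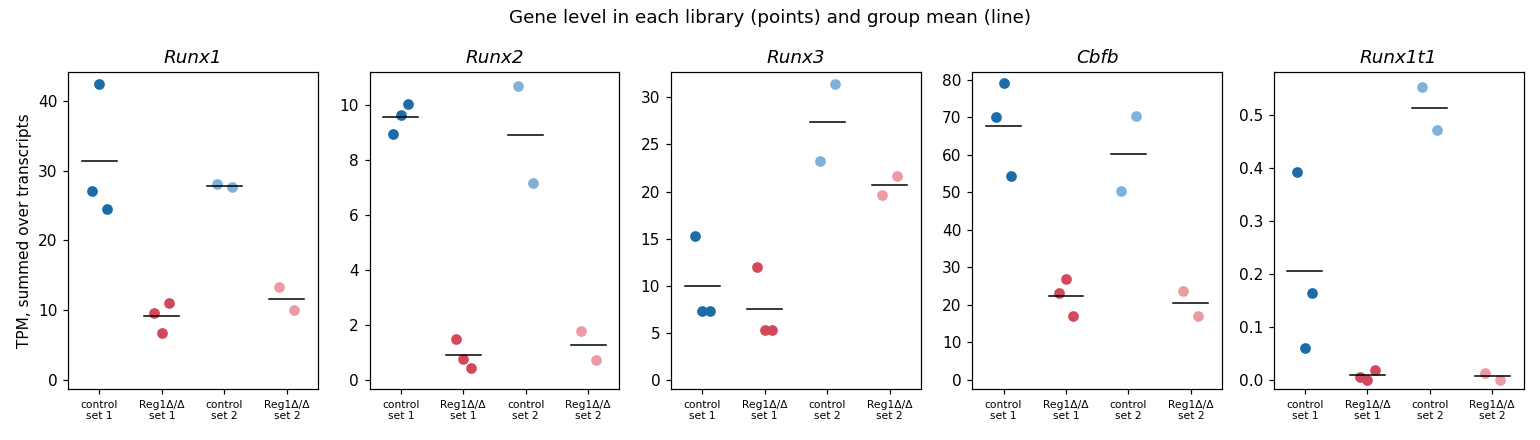
TPM summed over all transcripts of each gene (vertical axis, one scale per gene) for control and Reg1Δ/Δ-labelled libraries of set 1 and set 2 (horizontal axis). Points are libraries and lines are group means. Runx1, Runx2 and Cbfb show no overlap of the groups within either set, and Runx3 overlaps in set 1. The share of all genes without overlap was not counted.

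Among the 4 members tested, 3 passed the test and all of these were lower. This count is to be read against the 37.9% of all genes that were lower. Of the 3, Runx2 met the filter through its control libraries, being under 1 TPM in most of those labelled Reg1Δ/Δ. How many of all genes show no overlap between the groups was not counted. The share of lower genes was 38.3% in set 1 alone and 12.3% in set 2 alone, and the difference between the sets passed the test in 0.443% of genes. The median log2 difference of all genes tested was -0.25. Quantile normalization moved this median to 0.14 and median-of-ratios scaling moved it to 0.10, and the counts of 4880 lower and 1933 higher genes became 2636 and 3861 (20.5% and 30%), or 3245 and 4334 (25.2% and 33.7%). Under these scalings the log2 difference was -1.07 and -1.09 for Runx1, -1.63 and -2.08 for Runx2, and -1.37 and -1.14 for Cbfb, all with adjusted p values of at most 0.00134.

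**Figure D2:**
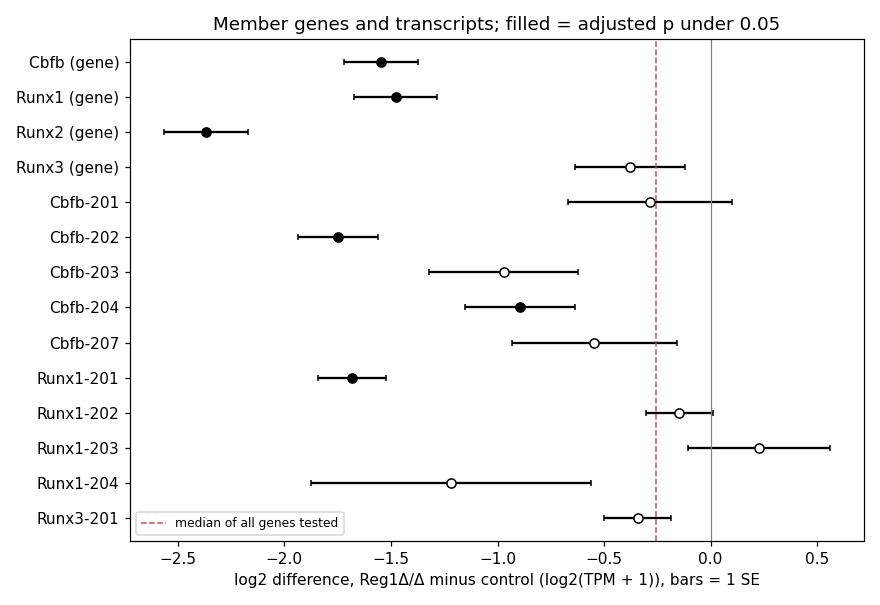
Log2 differences of log2(TPM + 1), Reg1Δ/Δ minus control (horizontal axis), for the 4 member genes and the 10 member transcripts that passed the filter, with bars of 1 SE. Filled points have an adjusted p under 0.05, the dashed line is the median of all genes tested (-0.25), and Runx1-201 lies at -1.68 while Runx1-202 lies at -0.15.

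The make-up of the Runx pool differed with these changes. The 3 Runx genes together held 41.8 to 66.2 TPM in the controls and 12.7 to 34.7 TPM in the libraries labelled Reg1Δ/Δ. Runx2 took 10.8% to 24.0% of this pool in the controls and 2.26% to 6.47% in the others. Runx3 took 12.3%, 17.5% and 29.7% in the set 1 controls against 31.3%, 41.6% and 51.9%, and 37.5% and 47.4% in the set 2 controls against 56.5% and 66.9%. The share of Runx3 was thus higher in each library labelled Reg1Δ/Δ than in the controls of its set. Cbfb stood at 0.81 to 1.37 times the Runx pool in the controls and at 0.529 to 2.11 times in the others, with the groups overlapping in set 1. These shares follow from the gene levels above and were not tested.

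Of the 7 Runx1 transcripts, 3 begin at the distal start (chr16:92825778-92826149) and 3 at the proximal start (chr16:92696125-92697328). The seventh has another version in GENCODE M21 and was counted in the gene total alone, at up to 0.438 TPM. The full-length transcripts were Runx1-201 from the distal start (5861 bases, 1395 of them coding), and Runx1-202 (1161 coding bases) and Runx1-203 (1353 coding bases) from the proximal start. Runx1-202 and Runx1-203 differ in an exon of 192 bases at chr16:92644154-92644345, which Runx1-202 skips.

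The distal full-length transcript passed the test as lower, and neither proximal full-length transcript passed it. Runx1-201 was at 7.80, 8.97 and 7.79 TPM in the set 1 controls and at 1.5, 1.64 and 2.16 TPM in the set 1 libraries labelled Reg1Δ/Δ. The set 2 values were 16.9 and 25.9 TPM against 7.14 and 5.47 TPM. Control libraries were higher than all others of their set, and set 2 stood above set 1 in both genotypes. The log2 difference was -1.68 (SE 0.16, adjusted p = 0.000112 over 31937 transcripts, of which 14.9% were lower). In set 2 alone it was -1.60 with an adjusted p of 0.155, and without the set covariate the adjusted p was 0.0667.

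Runx1-202 was at 1.98, 1.52 and 1.46 TPM in the set 1 controls against 1.02, 0.965 and 0.995 TPM. The set 2 values were 1.31 and 1.07 TPM in the controls against 1.59 and 1.59 TPM. It was thus lower in the libraries labelled Reg1Δ/Δ in set 1 and higher in set 2, with no overlap in either. The log2 difference over both sets was -0.15 (SE 0.16, adjusted p = 0.542). Runx1-203 was at 1.20, 2.71 and 0.866 TPM in the set 1 controls against 1, 0.908 and 1.15 TPM, and at 0 and 0.394 TPM in the set 2 controls against 0.622 and 2.49 TPM. Its groups overlapped in set 1, and the log2 difference was 0.23 (SE 0.33, adjusted p = 0.661). These levels are close to the filter of 1 TPM.

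Relative to the other transcripts of the gene, both proximal transcripts rose. The log2 ratio of Runx1-202 to the rest of Runx1 differed by 1.43 (SE 0.25, adjusted p = 0.0347) and that of Runx1-203 by 1.84 (SE 0.36, adjusted p = 0.0488). For the distal Runx1-201 the ratio to the rest of the gene differed by -0.84 (SE 0.50) and did not pass (adjusted p = 0.453). Its share overlapped between the groups in set 1, at 21.2% to 31.8% in the controls against 15.7% to 24.6%. Only 0.951% of the 27028 transcripts compared in this way passed. The share of Runx1-202 was 3.6% to 7.3% of Runx1 TPM in the controls and 9.0% to 15.9% in the libraries labelled Reg1Δ/Δ, and that of Runx1-203 was 0% to 6.4% against 4.7% to 25.0%. The calls were near the threshold. Each was lost in 5 of 6 other settings and in 9 of 10 fits that left out 1 library, with adjusted p values between 0.0186 and 0.788 for Runx1-202 and between 0.0295 and 0.788 for Runx1-203. The direction held in all of these fits.

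Summed by start, the distal share of Runx1 was lower in every library labelled Reg1Δ/Δ than in the controls of its set. It was 86.6%, 88.1% and 87.3% in the set 1 controls against 75.1%, 69.3% and 80.0%, and 95.3% and 94.7% in the set 2 controls against 83.4% and 59.1%. The mean difference was -17.0 percentage points, with a two-sided exact permutation p of 0.0167 over the 120 exchanges of labels within sets, the smallest p this design allows. Shares were tested for 3 genes and the p is not adjusted. With transcripts of at least 500 bases alone the difference was -25.0 percentage points (exact p = 0.0167), and with TPM weighted by transcript length it was -18.2 percentage points (exact p = 0.0167). Within set 1 the smallest p possible is 0.1 and within set 2 it is 0.333, and both were reached.

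The TPM from the 2 starts behaved differently. The distal start gave 21.4 to 37.3 TPM in the controls and 4.62 to 11.1 TPM in the libraries labelled Reg1Δ/Δ. The proximal start gave 3.63, 5.05 and 2.68 TPM in the set 1 controls against 2.23, 2.05 and 2.21 TPM, and 1.31 and 1.46 TPM in the set 2 controls against 2.21 and 4.08 TPM. The proximal sum was thus lower in set 1 and higher in set 2. Between the full-length transcripts alone, the distal one stood at 2.46, 2.12 and 3.34 times the proximal ones in the set 1 controls against 0.744, 0.874 and 1 times. In set 2 the ratio was 12.9 and 17.8 in the controls against 3.23 and 1.34.

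**Figure D3:**
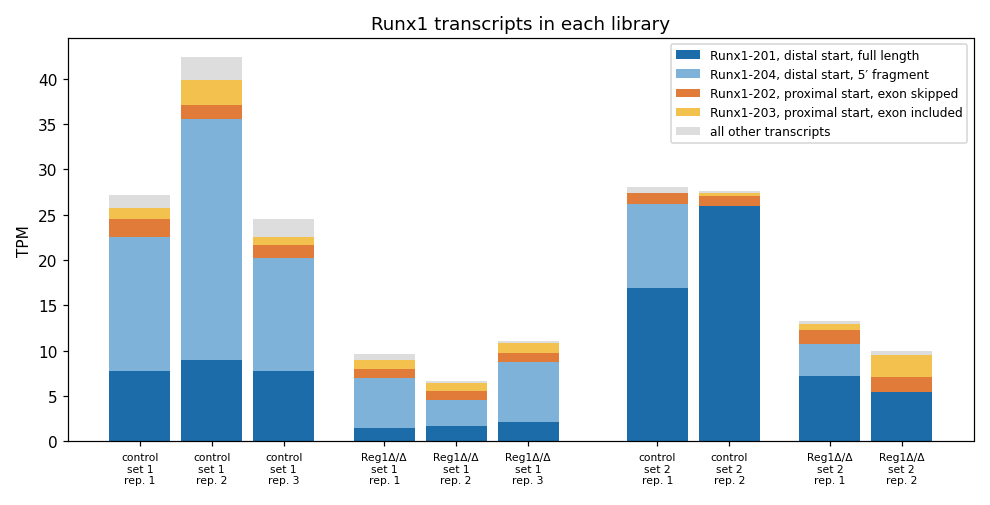
Stacked bars of Runx1 TPM (vertical axis) by transcript in each of the 10 libraries (horizontal axis), with distal-start transcripts in blue and proximal full-length transcripts in orange and yellow. The blue part shrinks from controls to Reg1Δ/Δ-labelled libraries, with Runx1-201 falling from between 7.79 and 25.9 TPM to between 1.5 and 7.14 TPM, while Runx1-202, at 0.965 to 1.98 TPM, is lower in the Reg1Δ/Δ-labelled libraries of set 1 and higher in those of set 2.

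A short transcript weighs on these shares. Runx1-204, an annotated coding fragment of 336 bases at the distal start, was at 14.7, 26.6 and 12.4 TPM in the set 1 controls against 5.45, 2.89 and 6.54 TPM. In set 1 its mean went from 17.9 to 4.96 TPM, a larger difference in TPM than that of Runx1-201, from 8.19 to 1.77 TPM. For set 2 the values were 9.17 and 0 TPM in the controls against 3.58 and 0 TPM, so that 1 library of each group listed it at 0. Its log2 difference was -1.22 (SE 0.66, adjusted p = 0.217), and -1.65 (adjusted p = 0.0188) in set 1 alone. It was -1.83 (adjusted p = 0.0248) without the second control of set 2 and -0.80 (adjusted p = 0.377) without the first. The 2 other named transcripts were minor. Runx1-207, from the distal start, reached 1.74 TPM and Runx1-206, with a retained intron, reached 0.82 TPM.

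Runx1-203, which includes the 192-base exon, made up 37.6%, 64.0% and 37.2% of the full-length proximal TPM in the set 1 controls and 49.5%, 48.5% and 53.7% in the set 1 libraries labelled Reg1Δ/Δ, with overlapping groups. In set 2 it was 0% and 27.0% against 28.1% and 61.1%, with no overlap. These values were not tested.

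The study's quantitative PCR primers for mouse Runx1 are shown because they decide which of these isoforms such an assay reads.
Forward primer: cttcctctgctccgtgctac
Reverse primer: tctgccgagtagttttcatcg
Exact matches to both were found in Runx1-201, Runx1-202, Runx1-203 and Runx1-206, with an amplicon of 141 bases in each, and in no transcript of another gene in GENCODE M21. The pair therefore does not separate the distal from the proximal isoforms. The TPM of the transcripts with both sites was 11.4, 14 and 10.5 in the set 1 controls against 3.74, 3.68 and 4.37, and 18.3 and 27.4 in the set 2 controls against 9.36 and 9.56. These sums were 33.1% to 99.2% of Runx1 TPM in the controls and 39% to 95.7% in the others.

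Runx3 was read mainly from its distal start, and its distal share did not pass the test. Runx3-201, the distal full-length transcript of 3884 bases, was at 9.26, 6.86 and 7.33 TPM in the set 1 controls against 4.93, 5.22 and 5.08 TPM. In set 2 it was at 15.1 and 20.2 TPM against 15.6 and 17.7 TPM, so that the groups were apart in set 1 and overlapped in set 2. The log2 difference was -0.34 (SE 0.16, adjusted p = 0.152). Runx3-202, the proximal full-length transcript, was at most 0.184 TPM in set 1, and in set 2 it was at 8.2 and 3.19 TPM in the controls against 2.98 and 3.49 TPM. Runx3-204, a non-coding transcript of 227 bases, was listed at 0 in 6 of the 10 libraries and reached 7.98 TPM in the others. The remaining 3 transcripts stayed at or below 0.686 TPM.

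The distal share of Runx3 was 60.7%, 93.7% and 100% in the set 1 controls against 41.2%, 98.5% and 97.0%. In set 2 it was 64.8% and 64.4% against 79.8% and 81.6%. The mean difference was 2.89 percentage points (two-sided exact permutation p = 0.85), and its sign was negative in set 1 alone and in 3 of the 10 sets of values that left out 1 library.

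**Figure D4:**
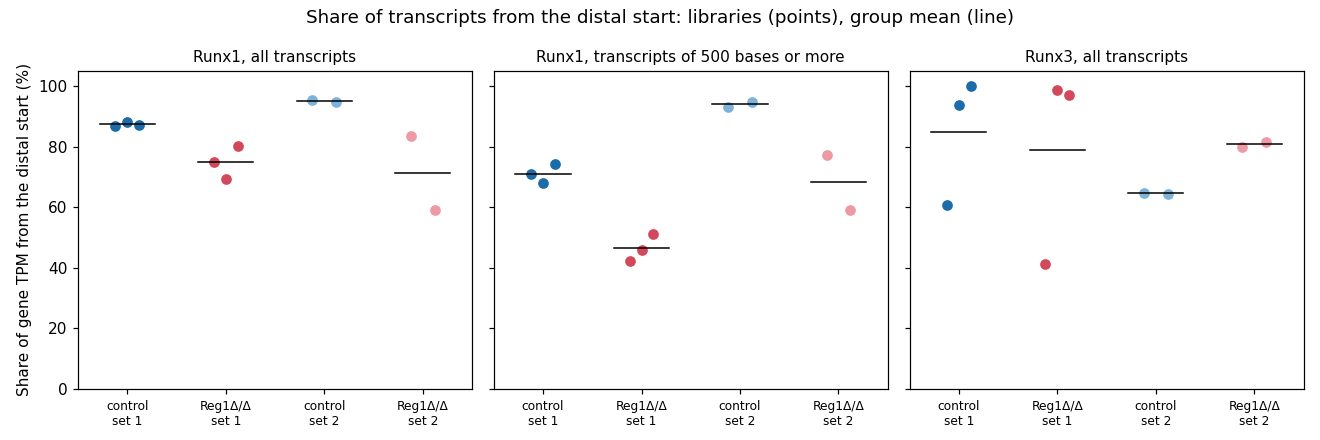
Share of gene TPM from the distal start in percent (vertical axis) for Runx1 with all transcripts, Runx1 with transcripts of at least 500 bases and Runx3, by group and set (horizontal axis). Points are libraries and lines are group means. For Runx1, controls lie between 86.6% and 95.3% with all transcripts and between 67.9% and 94.7% with the longer ones, and each lies above the Reg1Δ/Δ-labelled libraries of its set, which Runx3 does not show.

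None of the 11 Runx2 transcripts passed the filter singly, although the gene did. The distal share was 12.8%, 22.9% and 7.07% in the set 1 controls against 12.1%, 54.7% and 30.7%, and 41.0% and 46.9% in the set 2 controls against 22.0% and 0%. The mean difference was -2.22 percentage points (two-sided exact permutation p = 0.883), on a total of under 2 TPM in the libraries labelled Reg1Δ/Δ. Runx2-203, the proximal full-length transcript, was at 1.49, 0.512 and 1.85 TPM in the set 1 controls against 0, 0.0563 and 0 TPM, and at 3.98 and 2.98 TPM in the set 2 controls against 0.376 and 0.556 TPM. Runx2-212, a target of nonsense-mediated decay by annotation from the same start, was at 0.277 to 0.828 TPM in the controls and at most 0.175 TPM in the others. These proximal-start transcripts did not overlap between the groups of either set. Runx2-202, the longest from the distal start, was at 0 to 3.35 TPM in the controls and at most 0.193 TPM in the others.

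The other Runx2 transcripts named by their share were less even. Runx2-205, a fragment of 440 bases, was at 2.29, 5.37 and 4.82 TPM in the set 1 controls and at 0 in both set 2 controls, and it reached 0.824 TPM in the libraries labelled Reg1Δ/Δ. Runx2-206 reached 4.38 TPM in 1 control of set 2 and was at 0 in the other. Runx2-209 ranged from 0 to 2.11 TPM in the controls and reached 0.322 TPM in the others, and for Runx2-210 the values were 0 to 2.16 and up to 0.486 TPM. The remaining 4 transcripts stayed at or below 0.362 TPM.

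Cbfb encodes several isoforms that differ at the third and the fifth exon, and the next sequences show the joins because the sets read different isoforms. Lower case marks the end of the second exon in the first and the second line, and capitals mark the first 15 bases after the join. The last line is the 31-base extension of the fifth exon, chr8:105202548-105202578, which Cbfb-202 carries and Cbfb-201 lacks and which alters the coding sequence after it.
Cbfb-202, join to the third exon: ggtcgctcggagatcGCTTTTGTGGCTACA
Cbfb-203, join to the fourth exon: ggtcgctcggagatcGTATACTTGAAGGCT
Cbfb-202, extension of the fifth exon: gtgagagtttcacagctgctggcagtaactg
Cbfb-203 skips the third exon of 117 bases, chr8:105178593-105178709, and Cbfb-204 skips the fifth exon, of 96 bases in Cbfb-201 and 127 in Cbfb-202.

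Cbfb-202 (2891 bases) was the isoform read in all libraries, and it fell. It was at 17.5, 15 and 12.3 TPM in the set 1 controls against 4.94, 2.74 and 3.35 TPM, and at 28.9 and 42.3 TPM in the set 2 controls against 11.4 and 8.88 TPM. No Reg1Δ/Δ-labelled library reached a control of its set. For this isoform the log2 difference was -1.75 (SE 0.19, adjusted p = 0.00021), with -1.70 and an adjusted p of 0.132 in set 2 alone. Cbfb-204 was lower by -0.90 (SE 0.26, adjusted p = 0.0372), a call lost in 9 of 10 fits without 1 library and in 6 of 8 other settings. It was at 5.11, 3.77 and 2.94 TPM in the set 1 controls against 0.666, 1.53 and 1.68 TPM, and in set 2 all libraries but 1 control, at 1.18 TPM, listed it at 0.

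The other Cbfb isoforms were read in 1 set or the other. Cbfb-203 was at 23.5, 35.5 and 22.2 TPM in the set 1 controls against 7.72, 12.9 and 4.92 TPM, and was listed at 0 in all 4 libraries of set 2. Cbfb-201 was at most 1.66 TPM in set 1, and in set 2 it was at 20.2 and 28.1 TPM in the controls against 10.4 and 8.26 TPM. Cbfb-207, a non-coding transcript of 371 bases, was at 23.7, 24.2 and 15.6 TPM in the set 1 controls against 9.68, 9.51 and 5.42 TPM, and at most 1.16 TPM in set 2. In set 1 alone Cbfb-203 was lower by -1.62 (adjusted p = 0.0177) and Cbfb-207 by -1.28 (adjusted p = 0.0184). Over both sets these 3 did not pass, with adjusted p values of 0.0791 for Cbfb-203, 0.631 for Cbfb-201 and 0.345 for Cbfb-207. In every isoform read above 2 TPM in a set, the controls were thus above the libraries labelled Reg1Δ/Δ.

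**Figure D5:**
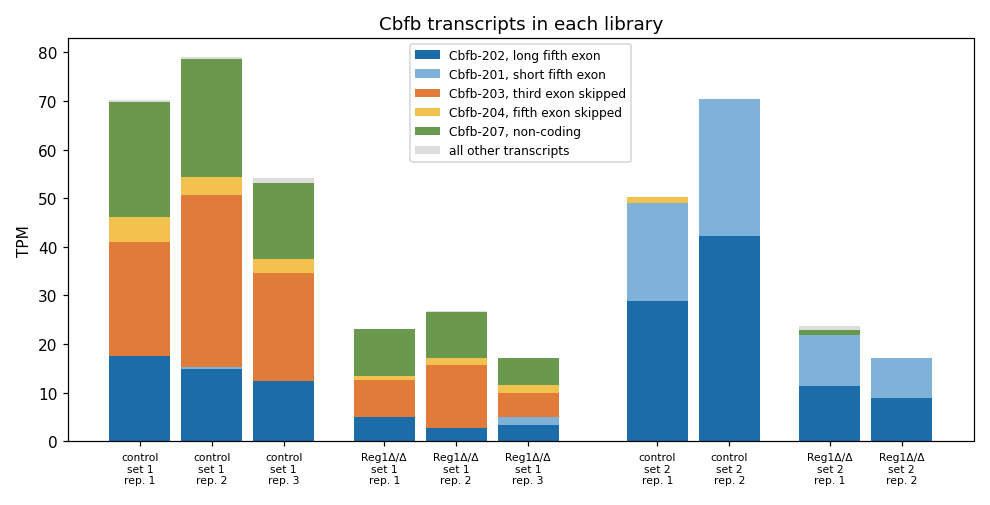
Stacked bars of Cbfb TPM (vertical axis) by transcript in each of the 10 libraries (horizontal axis). Cbfb-203 and Cbfb-207 appear in set 1, Cbfb-201 appears in set 2, and Cbfb-202 appears in both, with 12.3 to 42.3 TPM in controls and 2.74 to 11.4 TPM in Reg1Δ/Δ-labelled libraries.

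The shares of the Cbfb isoforms within the gene did not pass the test. Cbfb-202 took 18.9% to 25.0% of Cbfb TPM in the set 1 controls against 10.2% to 21.4%, and 57.5% and 60.1% in the set 2 controls against 48.0% and 51.8%. Its log2 ratio to the rest of the gene differed by -0.39 (SE 0.25, adjusted p = 0.483). The adjusted p values of the other 4 isoforms tested ranged from 0.181 to 0.52. The log2 ratio of coding to non-coding TPM differed by -1.14 (SE 0.41, adjusted p = 0.233), in a comparison that 0.438% of 5714 genes passed.

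Of the MTG family, which holds Runx1t1, the other members Cbfa2t2 and Cbfa2t3 were both lower, beside 37.9% of all genes, and Cbfa2t3 alone was lower under the other scalings. Cbfa2t3 was at 22.6, 16.9 and 17.6 TPM in the set 1 controls against 9.59, 9.92 and 9.36 TPM, and at 26.4 and 34.8 TPM against 19.3 and 18.8 TPM in set 2. Its log2 difference was -0.80 (SE 0.12, adjusted p = 0.00045), and -0.41 under both of these. For Cbfa2t2 it was -0.51 (SE 0.13, adjusted p = 0.00782) in the main scaling and -0.01 (adjusted p = 0.93) under quantile normalization, and -0.12 (adjusted p = 0.367) under median-of-ratios scaling.

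The 6 partners of Runx1 in the stem cell heptad, factors that bind together at enhancers of HSC genes, were all tested. Of these, 5 were lower and 1, Tal1, was higher, and these counts were the same under both scalings. Over all genes, 37.9% were lower and 15% were higher, against 20.5% and 30% under quantile normalization and 25.2% and 33.7% under median-of-ratios scaling. The median log2 difference was -1.18, against -0.25 for all genes. Erg was lower by -3.16 (SE 0.27, adjusted p = 1.03e-05), Fli1 by -2.72 (SE 0.12, adjusted p = 3.05e-07), Gata2 by -1.28 (SE 0.13) and Lmo2 by -1.07 (SE 0.18), which was -0.65 under median-of-ratios scaling. Tal1 was higher by 0.43 (SE 0.14, adjusted p = 0.0265), with overlapping groups in set 1, and by 0.88 and 0.81 under quantile normalization and median-of-ratios scaling.

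Of 19 cofactors of Runx and Cbfb, 11 were lower, 1 was higher and 7 did not pass, beside 37.9% lower and 15% higher over all genes, with a median of -0.47. Among the lower ones were Kmt2a, a histone methyltransferase, at -1.13 (SE 0.19), Tle3, a Groucho corepressor, at -1.10 (SE 0.25), and Crebbp, a histone acetyltransferase, at -1.08 (SE 0.17). Carm1, an arginine methyltransferase, was the higher one at 0.46. The split depended on the scaling, with 2 lower and 2 higher under quantile normalization (20.5% and 30% over all genes) and 5 lower and 6 higher under median-of-ratios scaling (25.2% and 33.7%). Under quantile normalization the 3 named lower genes did not pass, with -0.38 for Kmt2a (adjusted p = 0.153), -0.58 for Tle3 (adjusted p = 0.122) and -0.27 for Crebbp (adjusted p = 0.247).

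Of 20 known Runx1 targets in blood cells, 14 passed the filter. Of these, 12 were lower and none was higher, with a median of -1.88. The counts were equal under the 3 scalings but not for the same genes. Cebpa did not pass under quantile normalization (-0.05, adjusted p = 0.711), and Mpo passed only there (-2.03, adjusted p = 0.0487). The share of all genes that were lower was 37.9%, 20.5% and 25.2% under the same scalings. The list does not record whether Runx1 raises or lowers each target, so the counts do not measure Runx1 activity. Ebf1, which sets the B lineage, was lower by -4.16 (SE 0.67), Spi1, which encodes PU.1, by -2.54 (SE 0.19), and Cdkn1a, the cell cycle inhibitor p21, by -2.50 (SE 0.25). Ebf1, Csf1r, Mpo, Elane, Pf4 and Itga2b also stand in the marker lists above.

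The genes whose levels followed Runx1, Cbfb and Runx3 most closely were found among 7315 protein-coding genes with a mean of at least 10 TPM. The measure was Pearson's r of log2(TPM + 1) over the 10 libraries after the mean of each set was subtracted. Runx2 was left out of this search. For Runx1 the closest genes were Stx5a, Cdkn1a, Btg2, Ppm1d and Eef2k, with r from 0.981 to 0.985. For Cbfb they were Fcho2, Etfrf1, Gstk1, Lasp1 and Cdkn2aip, with r from 0.987 to 0.991. For Runx3 they were Arl3, Mettl17, Pdrg1, Rad52 and Pet100, with r from 0.855 to 0.918. The genotype label is shared by all these genes, so the values for Runx1 and Cbfb largely restate the difference between the groups, and no test was made.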

How the data were processed

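The authors amplified RNA from sorted CD34- HSCs (the study's methods and the labels name different versions of the SMARTer kit), built Nextera XT libraries and estimated transcript abundance with Salmon 0.9.1 on mm10 (GRCm38), with GENCODE M17. They deposited log2 values, log2(TPM + 1), for each transcript. Each value was raised as a power of 2, 1 was subtracted, and the TPM thus recovered were summed per gene. TPM keeps no read counts, so depth is unknown and count models were not run.

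Genes or transcripts with at least 1 TPM in at least 5 of 10 libraries were tested on log2(TPM + 1) with limma 3.58.1 in R 4.3.3 (lmFit, eBayes), library set as covariate, Benjamini-Hochberg adjustment over all features and a threshold of 0.05. Isoform shares used log2((TPM of the transcript + 1)/(TPM of the other transcripts + 1)). Starts within 2000 bases were chained, and their shares were tested by exact permutation within sets (Python 3.11.15). In a simulation of the gene test on 12874 genes, 79 of 100 genes changed by 1 on the log2 scale and 92 of 100 changed by 2 were called. Only these 200 genes were changed, and 8 of the 179 calls were false. Far more genes were called in the data, so these rates do not carry over to them. Of the 35 member transcripts, 34 matched GENCODE M21 in version and length, which gave names and coordinates. Transcripts were described singly when their mean share of the gene was at least 5% or they passed the test, and at most 4 genes were named per list: those with the largest differences among genes past the test whose groups did not overlap in either set. Some genes of the lists are not reported here by name. Genes beyond this rule, such as Tal1 and Carm1, were named after their values were seen. The members and lists were chosen with earlier results of these data known.

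The header of the second Reg1Δ/Δ file of set 2 carries the name of the first. Their values differ, and the file was taken as the second replicate, as its record gives it. No label ties a library to a mouse, so p values measure the spread between these libraries, which may be technical.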

Additional observations from a re-analysis of the deposited data

Results flagged for a closer look

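Runx1-202, the proximal transcript without the 192-base exon, moved in opposite directions in the 2 sets. Each library labelled Reg1Δ/Δ was below the controls in set 1 and above them in set 2. The log2 difference was -0.41 in set 1 and 0.25 in set 2, a change of 0.65 between the sets (SE 0.24), and limma's interaction did not pass after adjustment (adjusted p = 0.245 over all transcripts). All values lay between 0.965 and 1.98 TPM. Groups of 3 and 2 libraries were too small for a test of single libraries that stand apart.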

How the results depend on the processing

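Runx1 and Runx1's distal share kept their direction under all alternatives run, and Runx1, Runx2 and Cbfb stayed past the threshold when each library was left out in turn (-1.58 to -1.33, -2.51 to -2.25 and -1.62 to -1.45). In set 2 alone Cbfb (-1.51) and Runx2 (-2.16) did not pass. Leaving out short transcripts and weighting by length were chosen after seeing the data. Runx3 was 0.13 after quantile normalization and 0.00332 after median-of-ratios scaling. It passed at -0.44 with coding transcripts alone, at -0.42 with transcripts of at least 500 bases and at -0.38 with the replicate block. Without 1 library it ranged from -0.57 to -0.20.

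Libraries with the same replicate number were little alike, with correlations of deviations from the group means of 0.033, 0.175 and 0.068 in set 1 and -0.054 in set 2. With 2 libraries per group, both replicates of set 2 give this value by construction. Groups this small cannot exclude a pairing. With the replicate block 6 transcripts had a changed share, against 257 without it, and the calls of both proximal Runx1 transcripts were lost (adjusted p = 0.158 and 0.124). The number was 26 with a pseudocount of 0.1, 135 in set 1 alone, 0 in set 2 alone, 0 without the set covariate and 729 against coding transcripts only. At an unadjusted p under 0.05, 3201 passed in set 2 and 1038 without the covariate. Leaving out 1 library gave 22 to 364, fewest without the third Reg1Δ/Δ library of set 1.

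Lower and higher genes numbered 3052 and 716 without the set covariate, 2636 and 3861 after quantile normalization, 3245 and 4334 after median-of-ratios scaling, and 1581 and 452 in set 2 alone. The distal share of Runx1 differed by -12.5 points in set 1 alone and -23.8 in set 2 alone, where p cannot reach 0.05, and by -19.2 to -11.9 without 1 library. That of Runx3 differed by -5.94 in set 1 alone and by -2.46 to 14.2 without 1 library, with -1.25 and -0.83 also negative.

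Some values turned sign. In set 1 alone these were Cbfb-201 (0.37) and Runx1-203 (-0.30) in level, and Cbfb-203 (-0.14) and Runx1-204 (-0.17) in share. In set 2 alone they were Cbfb-207 (0.56) and Runx1-202 (0.25), and Runx1-202 was also 0.14 after quantile normalization. Cbfb-204 in share was -0.11 with a pseudocount of 0.1. Without 1 library, Runx1-203 ranged from -0.063 to 0.46 in level and Runx1-204 from -0.54 to 0.65 in share. Cbfb-203 was listed at 0 in all libraries of set 2, so its share there (1.51) rests on the pseudocount. The cause of these changes was not tested. The low level of the proximal Runx1 transcripts limits how closely their difference is known.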
